A study of Mus musculus with 16 samples.

Results

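The miR-34 and miR-449 family is a group of microRNAs (miRNAs) with a shared seed, the bases near the 5′ end through which a miRNA pairs with its target mRNAs. Members of the family are best known from multiciliated cells, where they are induced as cells build motile cilia and repress mRNAs such as Cp110, whose product holds back the growth of a cilium from its basal body. Ependymal cells, the ciliated cells that line the brain ventricles, are such cells. miR-34a is also made in many cells without motile cilia and is a target of p53. The members are defined by name, by a rule that uses no signal values: the 8 entries mmu-miR-34a-5p, mmu-miR-34b-5p, mmu-miR-34b-3p, mmu-miR-34c-5p, mmu-miR-34c-3p, mmu-miR-449a-5p, mmu-miR-449b and mmu-miR-449c-5p (below without the species prefix) among the 1881 mouse miRNAs that the array carried.

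The study asked how loss of a copy of Dgcr8, a gene of the 22q11 deletion region whose protein works with Drosha to cut primary miRNA transcripts into hairpins, alters miRNAs in the wall of the lateral ventricle (LV). It used 16 male mice aged 8 months on a C57BL/6J background, 8 wild-type (WT) littermates and 8 Dgcr8+/- mice, which carried the mutated allele in all cells. Total RNA from the dissected LV wall of each mouse was labelled with Cy3 and hybridized to a single array. The dissected wall held other cell types besides ependyma, so in these bulk samples fewer cells of a type and less RNA per cell cannot be told apart. Dgcr8 mRNA was not measured on these arrays.

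The arrays detected 495 to 540 miRNAs in WT mice and 467 to 492 in Dgcr8+/- mice. Slide 1 carried 6 WT and 2 Dgcr8+/- arrays and slide 2 carried 2 WT and 6 Dgcr8+/- arrays. The array of Dgcr8+/- replicate 2 stood apart, with the lowest labelling spike-in signal of the 16 (10.95 on the log2 scale), the lowest hybridization spike-in signal (13.71) and the fewest detected miRNAs (467). The array of WT replicate 6 had the highest hybridization spike-in signal (16.05, with the next at 15.26). Results that rest on Dgcr8+/- replicate 2 are given with and without it, and each array was also left out in turn.

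The family comes from 3 places in the genome (positions in GRCm38.p6). The hairpin of Mir34a lies alone at chr4:150068454-150068555 on the plus strand. Mir34b (chr9:51103562-51103645) and Mir34c (chr9:51103034-51103110) lie on the minus strand of chromosome 9 with 451 bases between them, within the span of the protein-coding genes Btg4 and Hoatz. Mir449c (chr13:113035983-113036091) and Mir449a (chr13:113037534-113037624) lie on the plus strand of chromosome 13 with 1442 bases between them. Mir449c, Mir449b and Mir449a all fall within the span of Cdc20b, a gene active in multiciliated cells.

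The mature sequences from RefSeq (GRCm38.p6) are shown because they separate the members into seed groups. Entries were matched for 6 of the 8 members and are written 5′ to 3′, with the seed (bases 2 to 8) in capitals.
miR-34a-5p: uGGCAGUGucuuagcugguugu
miR-34b-5p: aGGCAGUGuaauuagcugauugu
miR-449a-5p: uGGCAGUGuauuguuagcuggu
miR-449c-5p: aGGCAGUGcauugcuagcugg
miR-34b-3p: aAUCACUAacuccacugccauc
miR-34c-3p: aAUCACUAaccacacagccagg

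The seed GGCAGUG was held by these 4 5p arms and by no other of the 1679 mature mouse miRNAs with an entry. No entry was matched for miR-34c-5p and miR-449b, so this count does not cover their seeds. Counted position by position from the 5′ end without gaps, miR-449a-5p and miR-449c-5p were identical at 18 of 21 positions, miR-34a-5p and miR-449a-5p at 15 of 22 and miR-34a-5p and miR-34b-5p at 11 of 22. Such counts do not align stretches that are shifted by a base. The 3p arms of Mir34b and Mir34c carried a different seed, AUCACUA, and were identical at 17 of 22 positions. The 5p and 3p arms of Mir34b were identical at 6 of 22.

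Detection split the family by hairpin. miR-34a-5p, miR-34b-5p, miR-34b-3p, miR-34c-5p, miR-34c-3p and miR-449a-5p were detected on 16 of 16 arrays, whereas miR-449b and miR-449c-5p were detected on 0 of 16. For comparison, 430 of the 1881 miRNAs were detected on all 16 arrays and 1316 on none. The other arms of the hairpins, miR-34a-3p, miR-449a-3p and miR-449c-3p, were also detected on 0 of 16 arrays. Detection therefore did not differ between the genotypes for any member. For miR-449b and miR-449c-5p at most 0.208% of spots stood well above background, and their normalized signals lay at the floor of 1 signal unit in both genotypes, so no fold change is given.

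Every detected member was read by 2 probes and 30 spots per array. All spots for miR-34a-5p, miR-34b-5p and miR-34c-5p stood well above background, as did 96.9% of those for miR-34b-3p, 66.2% for miR-449a-5p and 60.6% for miR-34c-3p. The 2 probes of a member tracked each other across mice, with correlations between 0.890 for miR-34c-3p and 0.992 for miR-34a-5p after removal of genotype means. The SE of a probe's mean over its repeat spots was 0.024 (miR-34a-5p) to 0.073 (miR-34c-3p) on the log2 scale. Probes differ in affinity, so signals are compared between mice for each member and not between members.

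miR-34b-5p is a product of the chromosome 9 hairpin pair that multiciliated cells switch on. Its log2 quantile-normalized signal ranged from 8.25 through a median of 9.06 to 9.54 in the 8 WT mice. In the 8 Dgcr8+/- mice it ranged from 8.92 through a median of 9.29 to 9.81. The groups overlapped: 7 of 8 Dgcr8+/- mice lay above the WT median and 2 above the highest WT mouse. The means differed by 0.28 ± 0.16 (SE; 95% CI -0.043 to 0.61), which did not pass the threshold of 0.05 (limma, adjusted p = 0.123; exact permutation p = 0.109, two-sided).

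miR-34c-5p, from the neighbouring hairpin, ranged from 7.50 through a median of 8.30 to 8.76 on the log2 scale in WT mice and from 8.23 through 8.58 to 9.08 in Dgcr8+/- mice. Of the Dgcr8+/- mice 3 of 8 exceeded every WT mouse and none fell below the lowest. The difference, 0.35 ± 0.15 (95% CI 0.029 to 0.68), was the largest of the family and lay at the threshold (limma, unadjusted p = 0.0347, adjusted p = 0.0594; exact permutation p = 0.0412). It passed with the slide as a block (0.43, limma adjusted p = 0.0454), and without WT replicate 1, WT replicate 5 or Dgcr8+/- replicate 6 (adjusted p = 0.0235, 0.0484 and 0.0352). It lay further from the threshold after cyclic loess (0.29, adjusted p = 0.122), with array weights (0.26, adjusted p = 0.112), without WT replicate 4 (0.25, adjusted p = 0.109), without Dgcr8+/- replicate 3 (0.29, adjusted p = 0.118) and within slide 1 or 2 (adjusted p = 0.129 and 0.224). In all, 5 of 35 alternatives took it past the threshold.

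The 3p arms of the same hairpins were detected in every mouse. miR-34b-3p ranged from 4.33 through a median of 5.19 to 5.73 in WT mice and from 5.08 through 5.40 to 6.05 in Dgcr8+/- mice. miR-34c-3p ranged from 3.66 through a median of 4.39 to 4.91 in WT mice and from 4.36 through 4.64 to 5.28 in Dgcr8+/- mice. For each of them 1 Dgcr8+/- mouse lay above the highest WT mouse, and neither difference passed (0.29 ± 0.17, limma adjusted p = 0.135 for miR-34b-3p; 0.31 ± 0.15, adjusted p = 0.0914 for miR-34c-3p). Without WT replicate 4 the differences of miR-34b-5p and miR-34b-3p were smaller, at 0.17 and 0.18.

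miR-34a-5p, the member also made in many cells without motile cilia, ranged from 7.48 through a median of 7.82 to 8.08 in WT mice. In Dgcr8+/- mice it ranged from 7.45 through 8.07 to 8.50, with 4 of 8 above the highest WT mouse and 1, replicate 2, below the lowest. The difference of 0.26 ± 0.14 (95% CI -0.036 to 0.56) did not pass (limma, adjusted p = 0.118; exact permutation p = 0.104). Without Dgcr8+/- replicate 2 it was 0.35 and passed (limma, adjusted p = 0.0242). In that fit 170 of all 495 miRNAs were called higher and 150 lower.

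miR-449a-5p, the detected product of the Cdc20b cluster, ranged from 4.34 through a median of 4.53 to 4.74 in WT mice. In Dgcr8+/- mice it ranged from 4.06 through 4.76 to 5.02, again with 4 of 8 above every WT mouse and replicate 2 below them all. The difference was 0.15 ± 0.11 (95% CI -0.070 to 0.38; limma, adjusted p = 0.217; exact permutation p = 0.193). Without Dgcr8+/- replicate 2 it was 0.25 and passed (limma, adjusted p = 0.00368), in a fit that called 170 of all 495 miRNAs higher. Within slide 1 the difference was -0.14 and within slide 2 it was 0.27, the former resting on 2 Dgcr8+/- arrays of which 1 was replicate 2. With the slide as a block the difference was 0.065 (limma, adjusted p = 0.646). The other 5 detected members were higher in Dgcr8+/- mice within each slide after quantile normalization, with none past the threshold (limma, adjusted p = 0.129 to 0.602). All but miR-34a-5p of these come from the chromosome 9 hairpin pair and were correlated across mice, so they are not separate observations.

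**Figure D1:**
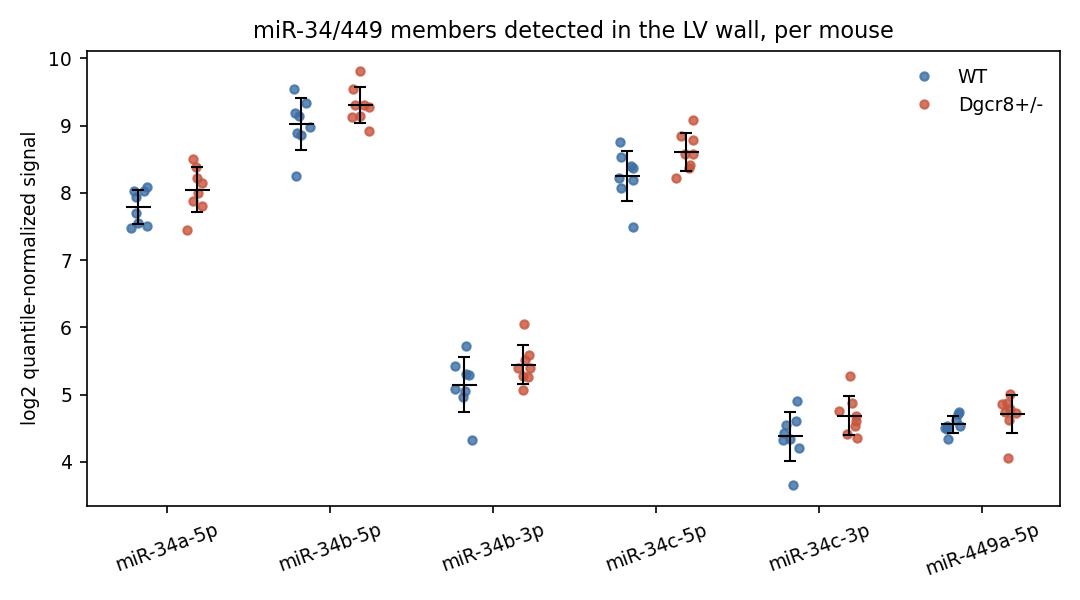
Log2 quantile-normalized array signal of the 6 detected members (vertical axis) in 8 WT and 8 Dgcr8+/- mice, with 1 point per mouse and black bars for the mean ± SD. The genotypes overlap for every member; the lowest WT points of the 4 Mir34b and Mir34c products belong to the same mouse, WT replicate 4.

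Thus 0 of the 6 detected members passed the threshold in either direction in limma, with 1 of 6 at an unadjusted p under 0.05. Over all 495 tested miRNAs 138 (27.9%) were called lower and 140 (28.3%) higher in Dgcr8+/- mice (56.2% in either direction), and 321 had an unadjusted p under 0.05. The median difference was 0.29 over the members and 0.037 over all tested miRNAs, whose quartiles were -0.27 and 0.27. The members' SD within a genotype was 0.22 to 0.36, against a median of 0.17 over the 430 miRNAs detected on all arrays. Their differences were thus measured less precisely than that of the median miRNA, and the lack of calls is not read as a lack of change.

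The sign of these differences depended on the scaling. Without normalization between arrays the median of all tested miRNAs was -0.39, and all 6 members were lower in Dgcr8+/- mice, from -0.047 (miR-34c-3p) to -0.27 (miR-34a-5p), with 0 of 6 past the threshold, at an unadjusted p under 0.05 too (limma), against 293 of 495 miRNAs (59.2%) called lower and 0 higher. Scaling to the labelling spike-ins gave a median of -0.38 over all miRNAs and differences of -0.040 to -0.26 for the members. Relative to the median miRNA, the 6 members lay 0.12 to 0.34 higher under both of these scalings. These scalings, and the 75th-percentile scaling below, differ only by a factor per array, so their relative values are the same by construction. After quantile normalization the members lay 0.12 to 0.32 above the median miRNA. Scaling to the 75th percentile, where 191 of all 495 miRNAs were called higher (38.6%) and 132 lower (26.7%) and their median was 0.11, called 3 of the 6 members higher: miR-34b-3p (0.42, adjusted p = 0.0406), miR-34c-3p (0.45, adjusted p = 0.0167) and miR-449a-5p (0.29, adjusted p = 0.00676).

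**Figure D2:**
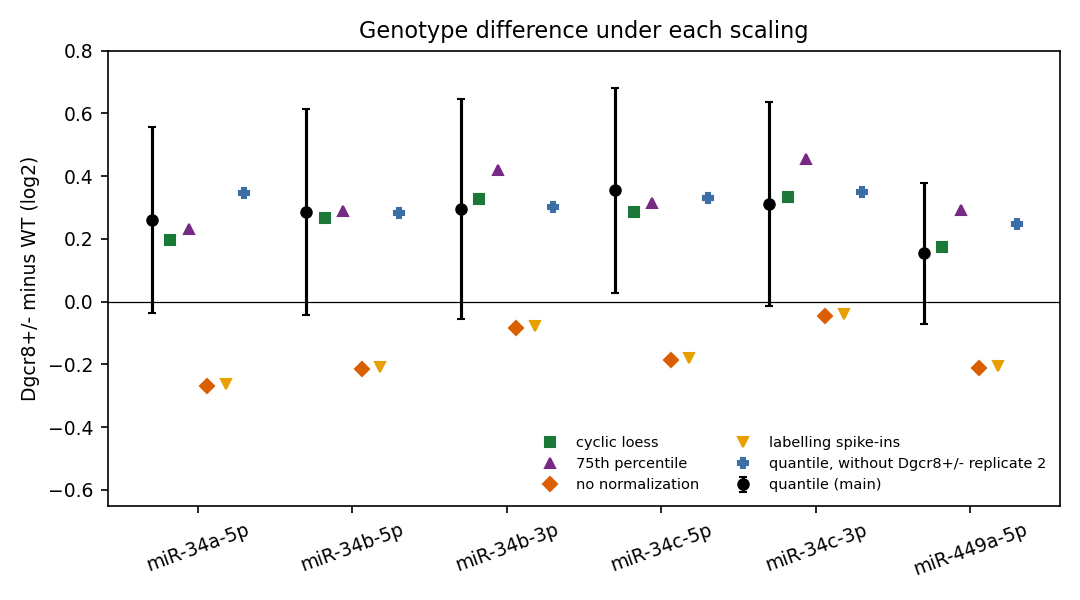
Difference in mean log2 signal, Dgcr8+/- minus WT, for each detected member under 5 scalings and without Dgcr8+/- replicate 2; bars on the black points are 95% confidence intervals of the quantile-normalized fit. All 6 differences are above 0 after quantile, cyclic loess or 75th-percentile scaling and below 0 without normalization or with spike-in scaling.

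The signals of the 5p arms and miR-449b were also summed for each array, as an array signal that probe affinity weights and not an amount of RNA, with no test. The log2 sum ranged from 9.61 through a median of 10.06 to 10.44 in WT mice and from 10.02 through 10.32 to 10.77 in Dgcr8+/- mice. The mean difference was 0.29, and -0.23 without normalization between arrays.

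Both arms were detected for Mir34b and Mir34c, which allowed the arms of each hairpin to be compared within each array. The log2 difference of miR-34b-5p over miR-34b-3p ranged from 3.81 through a median of 3.88 to 3.92 in WT mice and from 3.76 through 3.87 to 3.97 in Dgcr8+/- mice. For miR-34c-5p over miR-34c-3p it ranged from 3.74 through 3.86 to 3.98 in WT mice and from 3.80 through 3.85 to 4.36 in Dgcr8+/- mice, where replicate 2 held the highest value and the other 7 ended at 3.97. For Mir34b the SD of this difference was 0.041 in WT and 0.072 in Dgcr8+/- mice, against 0.39 and 0.27 for miR-34b-5p itself. For Mir34c it was 0.078 and 0.19 (0.061 without Dgcr8+/- replicate 2), against 0.37 and 0.28 for miR-34c-5p. The genotypes differed by -0.0096 for Mir34b (exact permutation p = 0.747) and by 0.045 for Mir34c (exact permutation p = 0.690), the latter -0.019 without Dgcr8+/- replicate 2 (exact permutation p = 0.618). Without normalization these differences were -0.13 (exact permutation p = 0.0249) and -0.14 (exact permutation p = 0.0106), and with the slide as a block that of Mir34c was 0.16 (exact permutation p = 0.0191). Replicate 2 is 1 of the 2 Dgcr8+/- arrays of slide 1, and without it the blocked value was 0.056 (exact permutation p = 0.128).

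The difference of miR-34c-5p over miR-34b-5p, chosen after its values were seen, also had a narrow range. It ran from -0.80 through a median of -0.77 to -0.70 in WT mice and from -0.78 through -0.71 to -0.53 in Dgcr8+/- mice. The groups overlapped, with 3 of 8 Dgcr8+/- mice above the highest WT mouse. The genotype means differed by 0.070, by 0.047 without replicate 2, by 0.026 without normalization and by 0.019 after cyclic loess, and no test is given.

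The 4 Mir34b and Mir34c products were among the miRNAs that varied most between mice of the same genotype. Their SD within a genotype was 0.33 to 0.36 on the log2 scale, against a median of 0.17 over the 430 miRNAs detected on all arrays, and ranked them 17th (miR-34b-3p), 23rd (miR-34b-5p), 24th (miR-34c-5p) and 25th (miR-34c-3p). miR-34a-5p had an SD of 0.30 (rank 32) and miR-449a-5p one of 0.22 (rank 96). Among WT mice the highest miR-34b-5p signal was 2.45 times the lowest, and among Dgcr8+/- mice 1.84 times. Without WT replicate 4 the former was 1.59 times, the WT SD of miR-34b-5p 0.25 in place of 0.39, and the 4 products ranked 40th to 56th by SD.

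The same mice were high or low for all 4 products. WT replicate 4 was the lowest WT mouse for each of them, with 8.25 for miR-34b-5p, 4.33 for miR-34b-3p, 7.50 for miR-34c-5p and 3.66 for miR-34c-3p. WT replicate 1 was the highest WT mouse for each (9.54, 5.73, 8.76 and 4.91). Among Dgcr8+/- mice, replicate 3 was the highest and replicate 6 the lowest for all 4. WT replicate 4 was in turn the highest WT mouse for miR-34a-5p (8.08). Its array had 511 detected miRNAs, a hybridization spike-in signal of 15.10 and the lowest labelling spike-in signal of the WT arrays (11.15); the part of labelling in its values was not tested.

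**Figure D3:**
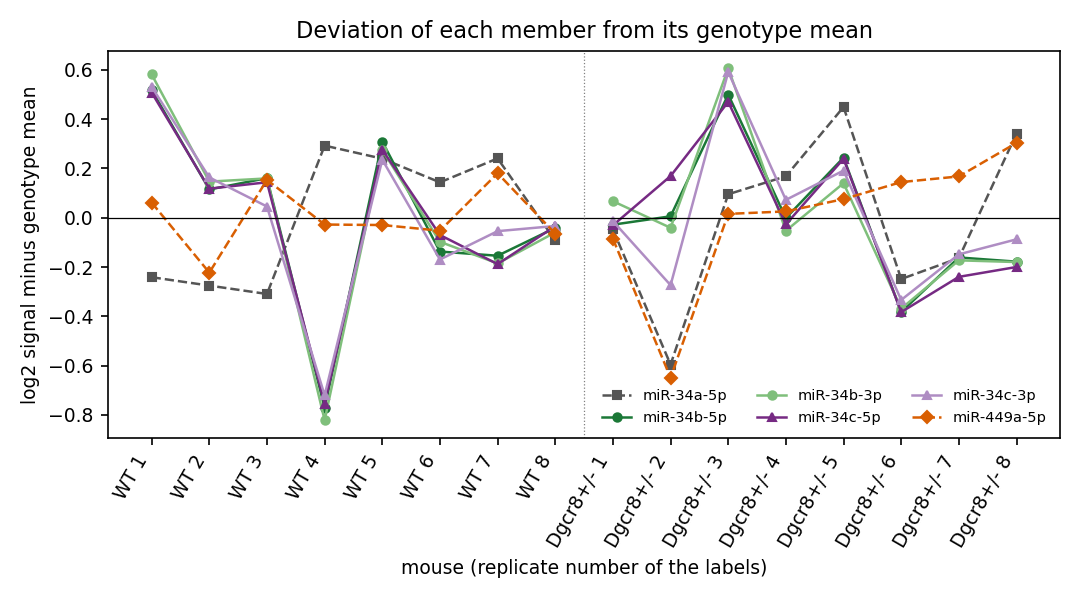
Deviation of each member's log2 signal from its genotype mean (vertical axis) in each mouse (horizontal axis, WT to the left of the dotted line); lines join values of 1 member only to guide the eye. The 4 Mir34b and Mir34c products (solid) move together from mouse to mouse, while miR-34a-5p and miR-449a-5p (dashed) follow other courses and both drop in Dgcr8+/- replicate 2.

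Covariation was measured for the 15 pairs of detected members as the correlation of log2 signals over the 16 mice after removal of genotype means. For the 6 pairs among the Mir34b and Mir34c products Pearson's r ranged from 0.905 (miR-34c-5p and miR-34c-3p) to 0.988 (miR-34b-5p and miR-34b-3p), and Spearman's rho from 0.838 to 0.988. Permutation p was 1e-05 for Pearson's r in 5 of these pairs, the smallest that 100000 permutations can give, and 5e-05 for miR-34c-5p and miR-34c-3p (adjusted over the 15 pairs, 3e-05 and 0.000125). For Spearman's rho the adjusted permutation p was at most 0.0006. Over all 122265 pairs of tested miRNAs the median r was -0.0075, with quartiles of -0.39 and 0.40, and 0.619% of pairs reached an r of 0.905 or more.

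The relation was also measured with mice left out and within each slide and genotype. With the 2 mice farthest from the median left out, r was 0.798 to 0.973 over the 6 pairs, and without WT replicate 4 it was 0.842 to 0.978. It was 0.951 to 0.997 within slide 1 and 0.975 to 0.995 within slide 2. Among the 8 WT mice it was 0.978 to 0.999 (exact permutation, adjusted p at most 0.000806), and among the 8 Dgcr8+/- mice 0.788 to 0.970 (exact permutation, adjusted p at most 0.0444). Without Dgcr8+/- replicate 2, whose miR-34c-3p was low for its miR-34c-5p, the 6 values of r over the other 15 mice were 0.978 to 0.996. Without normalization between arrays they were 0.965 to 0.995, where the median r over all pairs of miRNAs rose to 0.499. Cross-hybridization was not tested for any pair, neither for the similar 3p arms nor for miR-34b-5p and miR-34c-5p. The likeness of these 5p arms in sequence was not measured, because no entry was matched for miR-34c-5p. The part of cross-hybridization in these correlations was therefore not tested.

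miR-34a-5p, which shares the seed of miR-34b-5p, was not detectably correlated with the chromosome 9 products. Its r with them was -0.21 to 0.014 over the 16 mice (permutation, adjusted p = 0.731 to 0.960), with -0.14 for miR-34b-5p. Spearman's rho was -0.28 to 0.059 (permutation, adjusted p = 0.464 to 0.886), and r was -0.32 to -0.23 without the 2 mice farthest from the median. Among WT mice the 4 values were -0.62 to -0.58 (exact permutation, adjusted p = 0.179 to 0.186), and among Dgcr8+/- mice 0.17 to 0.57 (exact permutation, adjusted p = 0.267 to 0.684). Whether the genotypes differ in this was not tested. Without normalization the r of miR-34a-5p and miR-34b-5p was 0.41, below the median of 0.499 over all pairs on that scale.

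miR-449a-5p was not detectably correlated with them either, with r of -0.22 to 0.12 over the 16 mice (permutation, adjusted p = 0.731 to 0.808), and -0.083 for miR-34b-5p. Spearman's rho was -0.30 to -0.041 (permutation, adjusted p = 0.464 to 0.886), and r was -0.40 to 0.14 without the 2 mice farthest from the median. In WT mice r lay between 0.034 and 0.072, and in Dgcr8+/- mice between -0.42 and 0.18 (exact permutation, adjusted p = 0.518 to 0.680). Spearman's rho in Dgcr8+/- mice was -0.64 to -0.19 (exact permutation, unadjusted p = 0.0962 to 0.665). The values of r differed in sign between slides, from 0.18 to 0.43 within slide 1 and from -0.58 to -0.46 within slide 2. The r of miR-449a-5p with miR-34a-5p was 0.53 (permutation p = 0.0609, adjusted p = 0.131; Spearman's rho 0.33, adjusted p = 0.464). It rested on Dgcr8+/- replicate 2, since without that mouse it was 0.13. Without normalization between arrays it was 0.82 (permutation, adjusted p = 0.00129), where the upper quartile over all pairs of miRNAs was 0.779.

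**Figure D4:**
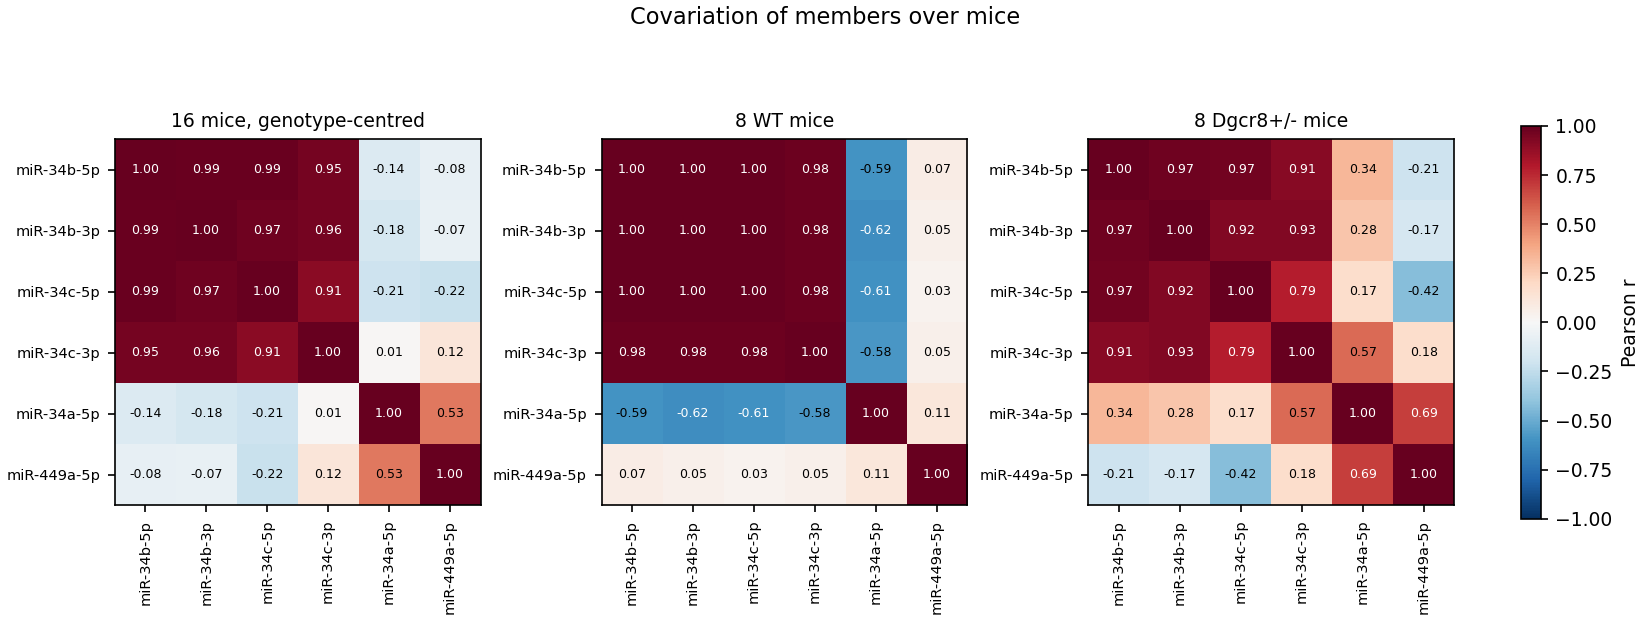
Pearson's r between the log2 signals of the 6 detected members, printed in each cell and coloured from -1 (blue) to 1 (red), over 16 mice after removal of genotype means (left), 8 WT mice (middle) and 8 Dgcr8+/- mice (right). The block of the 4 Mir34b and Mir34c products stands at 0.79 or above in all 3 panels, and miR-34a-5p and miR-449a-5p lie outside it.

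Outside the family, the 5 miRNAs most like miR-34b-5p, taken as the member with the highest mean array signal, were miR-466f-3p (r = 0.69), miR-19a-3p (0.68), miR-574-3p (0.66), miR-466g (0.64) and miR-466i-3p (0.63). These are the highest of 424 correlations over 16 arrays and are given as a description; all are below the lowest r within the chromosome 9 group. miR-19a-3p comes from a polycistronic miRNA cluster known for its role in cell proliferation. The miRNA most like miR-34a-5p was miR-204-5p, a miRNA abundant in the choroid plexus epithelium (r = 0.85, or 0.77 without Dgcr8+/- replicate 2). The miRNA most like miR-449a-5p was miR-31-3p (r = 0.93, or 0.87 without that mouse); both were named after their values were seen.

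miRNAs of other cell types that an LV wall can hold were measured beside the family. Of 3 choroid plexus miRNAs, miR-204-5p and miR-211-5p were detected on all arrays and miR-204-3p on none, and miR-204-5p was lower in Dgcr8+/- mice (-0.29 ± 0.094, limma adjusted p = 0.0136). The log2 sum of that list ranged from 9.06 to 9.53 in WT and from 8.66 to 9.29 in Dgcr8+/- mice. This sum mostly repeats miR-204-5p, whose WT mean was 9.25, against 4.09 for miR-211-5p and 1.81 for miR-204-3p. miR-204-5p was 9.48 in WT replicate 4, the highest WT value, and 8.55 in Dgcr8+/- replicate 2, the lowest of all. miR-211-5p, the other detected choroid plexus miRNA, differed by 0.0021 between genotypes (limma adjusted p = 0.989) and was 4.15 in WT replicate 4 and 4.85 in Dgcr8+/- replicate 2, against means of 4.09 in both genotypes. The part of choroid plexus tissue in the signal of miR-34a-5p was not tested.

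The epithelial miR-200 family was at or near background, with miR-200a-3p detected on 1 array and the other 4 listed members on 0. All 3 products of miR-129, a further miRNA linked to cilium formation, were detected on 16 arrays and 0 of 3 passed the threshold, with a median difference of -0.014. Of the tested miRNAs typical of neurons, 1 of 4 was lower and 1 higher. Of those typical of oligodendrocytes 1 of 3 was higher, and of those typical of blood vessels 2 of 4 were higher. For immune cells 1 of 4 was lower, and for red blood cells 1 of 3 was lower. Over all 495 tested miRNAs 27.9% were called lower and 28.3% higher, so no change of a cell type is read from these counts. The part of these cell types in the values of the miR-34 and miR-449 members was not tested.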

How the data were processed

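Per the labels, total RNA (100 ng) of each LV wall was hybridized to a 1-colour Agilent mouse miRNA array (miRBase-based design), with 1 mouse per array. The deposited scanner files hold spot intensity already background-subtracted by Agilent Feature Extraction (10.7.3.1 in the file headers, 10.5.1.1 in the submitters' processing notes); the deposited table holds the authors' total gene signal of the same arrays, a linear intensity. The study's methods normalized by quantiles and used Student's t-test.

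Here control spots and spots with an outlier flag were left out, spots averaged per probe, 4415 probes quantile-normalized, probes averaged per miRNA, values floored at 1 and log2-transformed; no deposited value was on the log2 scale. Dgcr8+/- and WT were compared with limma 3.58.1 (R 4.3.3) over the 495 miRNAs detected on at least 8 arrays, taking an adjusted p (Benjamini-Hochberg, all 495) under 0.05 as a call. The scripts were tested on simulated data. Members and arm differences were compared by exact permutation over all 12870 groupings (two-sided; smallest p 0.000155), and correlations by permutation within genotypes, with numpy and scipy (Python). The number of arrays limits the precision. Mice are separate animals. The slides held unequal numbers of both genotypes, so slide effects were fitted as a block and within each slide.

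The members, marker lists and tests were chosen with earlier results of these data known. The text names all members, the other arms of their hairpins, the 5 miRNAs most correlated with the brightest member, marker miRNAs and miRNAs with the family's seed. Alternatives changed the background correction, normalization, floor, detection filter, outlier spots, probe summary, test, slide and replicate terms, and left out each array in turn.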

Additional observations from a re-analysis of the deposited data

Results flagged for a closer look

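An array far from the 7 others of its genotype was found in 3 of the 20 groups of values searched. All 3 belonged to Dgcr8+/- replicate 2, the array with the lowest spike-in signals. Chance alone gives about 1 in 20 for independent groups. These groups share members, and 1 was chosen after its values were seen, so the count cannot be set against chance. Its miR-449a-5p signal was 4.06 on the log2 scale, against 4.63 to 5.02 in the other Dgcr8+/- mice. Its difference of miR-34c-5p over miR-34c-3p was 4.36, against 3.80 to 3.97. Its difference of miR-34c-5p over miR-34b-5p was -0.53, against -0.78 to -0.70.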

How the results depend on the processing

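Without normalization the genotype differences reversed to -0.27 (miR-34a-5p), -0.21 (miR-34b-5p), -0.083 (miR-34b-3p), -0.19 (miR-34c-5p), -0.047 (miR-34c-3p) and -0.21 (miR-449a-5p), and with labelling spike-ins to -0.26, -0.21, -0.076, -0.18, -0.040 and -0.20. The summed signal went to -0.23 and -0.22, and the calls over all miRNAs to 293 and 264 lower with 0 higher in both. Within slide 1 there were 89 higher calls and miR-449a-5p was -0.14. Calls were gained with the 75th percentile (miR-34b-3p 0.42, miR-34c-3p 0.45, miR-449a-5p 0.29), array weights (miR-34a-5p 0.34, miR-449a-5p 0.25) and the slide block (miR-34c-5p 0.43). Over all 495 miRNAs these settings called 191, 169 and 151 higher, against 140 in the main fit. The slide block gave 0.065 for miR-449a-5p, 0.24 for miR-34a-5p and 0.28 for miR-34c-3p (limma, adjusted p = 0.646, 0.224 and 0.202). It gave 0.33 for miR-34b-5p and 0.32 for miR-34b-3p (adjusted p = 0.131 and 0.176). The deposited total gene signal gave 0.036 for miR-449a-5p (adjusted p = 0.841) and 0.23 to 0.37 for the others. With outlier spots kept miR-34a-5p was 0.16 (adjusted p = 0.537) and the others 0.18 to 0.38.

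Of the 8 pairs of mice with the same replicate number, 5 had correlated deviations (0.23 to 0.50) and 3 did not (-0.14 to -0.016). The best partner carried the same number for 3 WT and 2 Dgcr8+/- mice of 16, so the numbers were not taken as pairs. With the replicate number as a block the difference of miR-34c-5p was 0.35 and passed (limma, adjusted p = 0.0322), and no other member's call changed; 140 miRNAs were called lower and 147 higher.

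The arm difference of Mir34b was -0.13 without normalization, with the 75th percentile and with spike-ins, 0.14 with normexp background correction, 0.015 with outlier spots kept, 0.066 within slide 1, 0.016 with the slide block and 0.012 with it and Dgcr8+/- replicate 2 left out (chosen after seeing the data). That of Mir34c was -0.14 without normalization, with the 75th percentile and with spike-ins, -0.048 after cyclic loess and 0.16 with the slide block. For both hairpins the first 3 of these settings give a single result, because a factor per array cancels in a difference within an array. The difference of miR-34c-5p over miR-34b-5p, added after the data were seen, was 0.14 within slide 1. The causes were not tested.

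The r of miR-34a-5p and miR-34b-5p was 0.41 without normalization, 0.37 with spike-ins, 0.084 with outlier spots kept and 0.11 within slide 2; that of miR-34b-5p and miR-449a-5p was 0.48, 0.40, 0.078 and, within slide 1, 0.30. The highest r of the 9 pairs outside the chromosome 9 group was 0.82 without normalization, 0.83 with spike-ins and 0.40 with outlier spots kept. These values belonged to miR-34a-5p and miR-449a-5p, and those of 0.82 and 0.83 passed (permutation, adjusted p = 0.00129 and 0.000643). The lowest was 0.21, 0.17 and -0.059 in these settings, and -0.32 and -0.58 within slides 1 and 2. The r of the 6 pairs within that group kept its sign and its call under every alternative run.

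Leaving out each array in turn, the differences ranged from 0.20 to 0.35 (miR-34a-5p), 0.17 to 0.36 (miR-34b-5p), 0.18 to 0.38 (miR-34b-3p), 0.25 to 0.43 (miR-34c-5p), 0.21 to 0.39 (miR-34c-3p) and 0.11 to 0.25 (miR-449a-5p), and the summed signal from 0.22 to 0.34. miR-34c-3p passed without WT replicate 1. Leaving out WT replicate 4 gave the lowest difference of the 4 chromosome 9 products and of the sum. The arm difference ranged from -0.024 to 0.0057 (Mir34b) and -0.019 to 0.062 (Mir34c), miR-34c-5p over miR-34b-5p from 0.047 to 0.081, the r of miR-34a-5p and miR-34b-5p from -0.26 to 0.062, the highest r outside the group from 0.13 to 0.63 and the lowest from -0.34 to -0.17.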
